A study of Mus musculus with 4 samples.

Results

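The genes described here are the 3 D cyclins, Ccnd1, Ccnd2 and Ccnd3, and the 3 CDK inhibitors of the CIP/KIP family, Cdkn1a (p21), Cdkn1b (p27) and Cdkn1c (p57). They were taken by symbol and are 6 of the 31053 features counted. Levels were read from single-cell RNA libraries of digested tibial and femoral epiphyses, where the long bones of the leg carry their growth plates and joint cartilage. There were 4 libraries, 1 for each genotype and age: wild type control mice and Sox9fl:fl AcanCreERT2/+ mutant mice, each at postnatal day 13 and day 19. In the mutant both copies of Sox9, the master transcription factor of cartilage, carry loxP sites, and an inducible Cre recombinase (CreERT2) is made from 1 copy of the Acan locus, so that deletion is limited to cells that express aggrecan. The control is given as wild type, without the floxed alleles or the Cre, and the sources used here do not say when the Cre was induced. With 1 library per genotype and age there was no replicate of a condition, and the labels used here do not say how many animals entered each library. The series' design text speaks of adult mice and of a further genotype that also lacks Sox8, in conflict with the labels of these samples, which were followed.

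D cyclins bind CDK4 or CDK6 in response to growth signals, and the kinase they form phosphorylates the retinoblastoma proteins, which releases E2F factors and lets a cell pass from G1 into S phase. CIP/KIP inhibitors bind cyclin and CDK complexes and hold the cell in G1, and Cdkn1a is also a classical target of p53. In the growth plate Ccnd1 is known as a gene of proliferating columnar chondrocytes, and Cdkn1c, an imprinted gene expressed from the maternal copy, as an inhibitor that chondrocytes raise when they leave the cell cycle and enlarge.

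The libraries held 70507107 to 76080803 UMIs, single RNA molecules counted by their molecular tags, over 8053 to 12714 barcodes. Barcodes with at least 500 genes and at most 15% mitochondrial UMIs that a doublet caller did not mark numbered 30398. Of the barcode sequences 144 occurred in more than 1 library, 89 of them among kept cells. Clustering gave 37 clusters, of which 4 stayed unnamed. Of the 6 genes, only Cdkn1c was among the 2000 variable genes used to cluster, so its differences between clusters were in part built in. Chondrocyte-like cells were 4261 of the day 13 control library (68.3%), 1040 at day 19 (14.5%), 3504 of the day 13 mutant (48.0%) and 3059 at day 19 (31.5%). In these cells Sox9 stood at 359 and 460 CPM (UMIs per 1000000) in control at days 13 and 19, and at 195 and 174 CPM in the mutant. Tags at the 3′ end may lie outside the deleted part of Sox9, so this level checks the labels only in part.

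The genotypes filled the chondrocyte-like class with different clusters. Control cells came mostly from clusters led by Tnni2 and Frzb (cluster 1) and by C1qtnf3 and Il17b (cluster 5). A cluster led by Prg4 and Cilp (cluster 7) was filled by both genotypes. It held 361 and 202 control cells and 412 and 353 mutant cells at days 13 and 19. Mutant cells came mostly from a cluster led by Myoc and Pi15 (cluster 0) and one led by Cryba2 and Mmp13 (cluster 3a), which held 27 and 9 control cells, and 6 and 4, at days 13 and 19. A cluster led by Col10a1 and Ihh, markers of prehypertrophic and hypertrophic chondrocytes (cluster 18), and one led by Pbk and Cdk1, mitotic kinases (cluster 17), held at least 69 cells in every library. Clusters 0, 17, 3a and 2 smaller ones joined the class by a marker rule set after the clusters were seen. Without them the class held 3999 and 878 control cells, but 849 and 868 mutant cells, at days 13 and 19. Of 24 chondrocyte markers, 17 passed a cut over blood cells in cluster 3a. In osteoblast-like cluster 3b it was 16, and in pericyte-like cells 19. Col2a1, a cartilage collagen, had 6459 CPM in cluster 3a, 6228 CPM in 3b and 16095 CPM in cluster 0. These values did not set cluster 3a apart from osteoblast-like cells.

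Levels in the cell types are given as CPM of the summed UMIs of a class in a library, over libraries with at least 50 cells of it. The 3′ counts hold 1 tag per molecule, so they need no correction for transcript length, but capture can differ between genes. Cells of 1 library are not replicates, so these levels are a description with no test. Fewer cells that express a gene and less RNA of it per cell cannot be told apart in a sum.

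Among the D cyclins, each of the 3 led in a different set of tissues. Ccnd1 was highest in endothelial-like cells, at 162 to 294 CPM over 3 libraries, above every macrophage-like value of 52.1 to 79.1 CPM and every plasmacytoid dendritic-like value (18.4 to 126 CPM, 2 libraries). Osteoblast-like cells (25.2 to 42.3 CPM, 2 libraries), fibroblast and tendon-like cells (18.8 to 61.7 CPM) and chondrocyte-like cells (9.93 to 62.3 CPM) followed with overlapping ranges. Ccnd1 was low in most other marrow classes. Its highest value was 5.64 CPM in B lineage-like, 2.84 CPM in neutrophil-like, 4.86 CPM in monocyte-like, 6.82 CPM in myeloid progenitor-like, 10.1 CPM in T and NK-like and 8.13 CPM in erythroid-like cells, with 17.1 CPM in megakaryocyte-like cells of 1 library.

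Ccnd2, the D cyclin known from ovary, islets and lymphocytes, was highest in fibroblast and tendon-like cells at 245 to 359 CPM. T and NK-like cells (188 to 207 CPM, 2 libraries) and endothelial-like cells (131 to 225 CPM) came next, below every fibroblast value and overlapping each other. Osteoblast-like cells (136 to 141 CPM) and chondrocyte-like cells (91.6 to 156 CPM) overlapped the endothelial range. Macrophage-like, neutrophil-like, erythroid-like and monocyte-like cells had 5.09 to 23.4 CPM. Ccnd3, a D cyclin known from blood lineages, was highest in several marrow classes. It reached 261 to 358 CPM in B lineage-like, 204 to 342 CPM in erythroid-like, 250 to 303 CPM in neutrophil-like and 168 to 306 CPM in monocyte-like cells, whose ranges overlapped. The B lineage-like and erythroid-like sums joined unlike clusters. B lineage-like cluster 10 had 367.8 to 421.1 CPM of Ccnd3, but cluster 12, led by Ms4a1, had a median of 101.4 CPM. All Ccnd3 values of cluster 12 were below its Ccnd2 values of 120.6 to 188.0 CPM. Erythroid-like cluster 11 had 292.7 to 451.6 CPM of Ccnd3, but cluster 16 had 15.5 to 35.8 CPM. Chondrocyte-like cells, at 66.1 to 110.5 CPM, overlapped endothelial-like, fibroblast and tendon-like and osteoblast-like cells. T and NK-like cells had 65.9 and 90.9 CPM (2 libraries), within or near the chondrocyte-like range. Macrophage-like cells were lowest at 41.7 to 59.2 CPM.

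Among the inhibitors, Cdkn1c was highest in chondrocyte-like cells of all named classes. Its level was 616 to 1563 CPM in chondrocyte-like cells, above all 4 fibroblast and tendon-like values (197 to 578 CPM). Endothelial-like (381 to 455 CPM) and osteoblast-like cells (232 to 409 CPM) overlapped the fibroblasts. T and NK-like cells (142 and 285 CPM, 2 libraries) reached into the range of osteoblast-like cells. The other marrow classes had at most 119 CPM. Neutrophil-like cells, which should lack cartilage RNA, had 119, 35.9, 60.4 and 42.0 CPM of Cdkn1c in the order control day 13, control day 19, mutant day 13 and mutant day 19, beside 6538, 3637, 2290 and 2019 CPM of Col2a1, the major cartilage collagen.

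Cdkn1a was highest in osteoblast-like (449 to 486 CPM), monocyte-like (306 to 472 CPM) and chondrocyte-like cells (255 to 328 CPM), by the median over libraries, with overlap between neighbours in that order. Single libraries of fibroblast and tendon-like (332 CPM, control day 19) and endothelial-like cells (456 CPM, mutant day 19) exceeded every chondrocyte-like value. Cdkn1a was lowest in erythroid-like cells at 12.2 to 28.04 CPM, without overlap with any other class. Cdkn1b ran the other way. Plasmacytoid dendritic-like (91.0 to 189 CPM, 2 libraries), B lineage-like (117 to 238 CPM) and erythroid-like cells (62.3 to 145 CPM) led, and chondrocyte-like cells had 29.1 to 41.5 CPM.

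**Figure D1:**
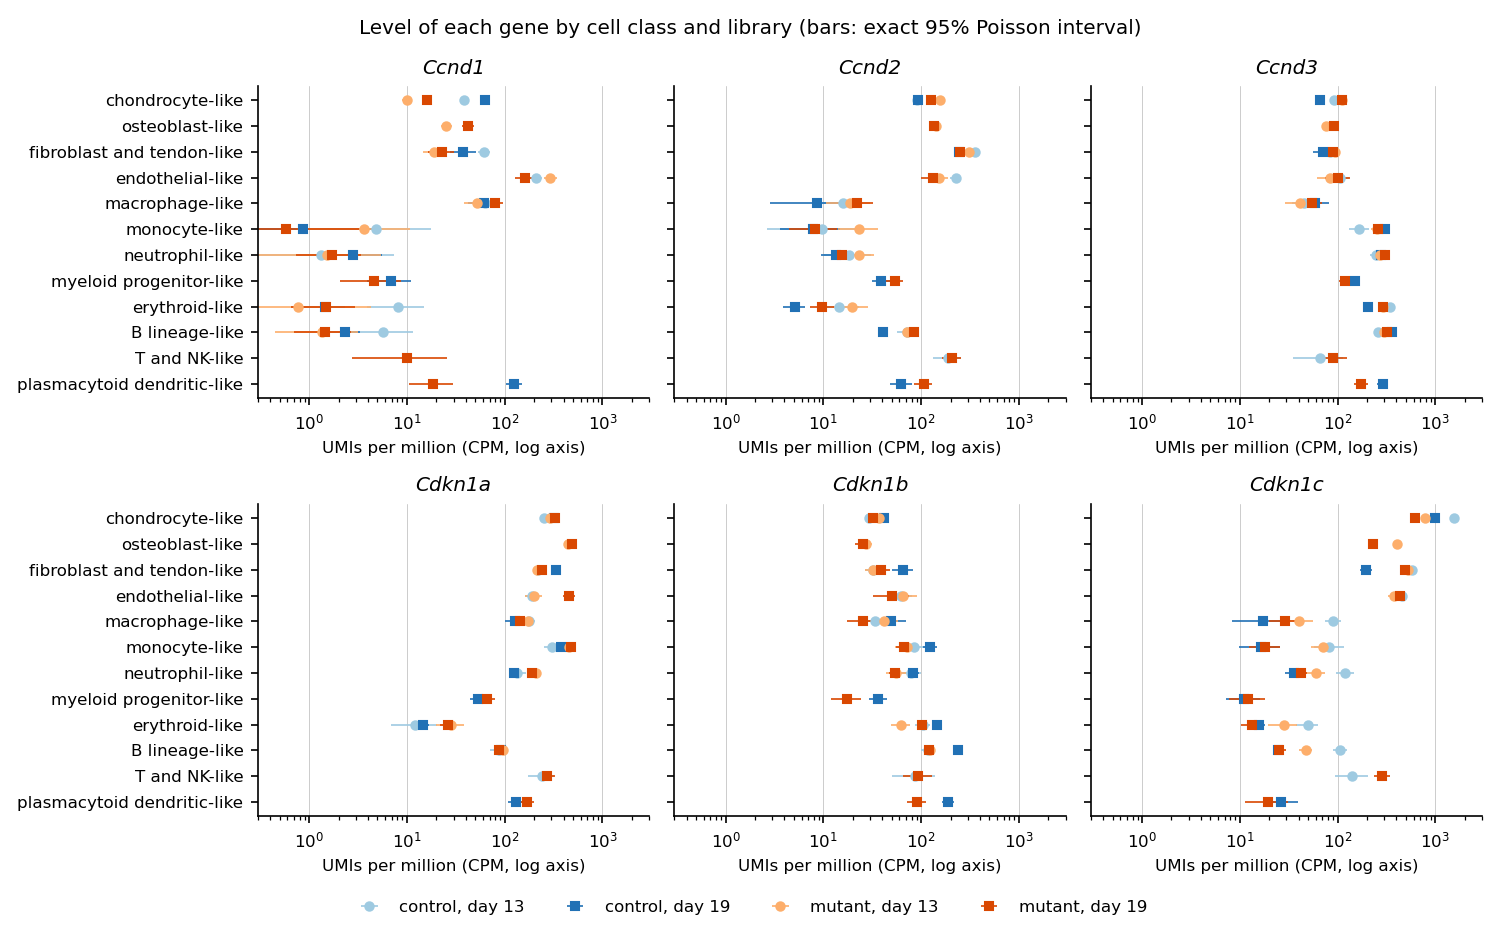
Levels of the 6 genes by cell class, in CPM of summed UMIs on a log axis, with 1 point per library and exact Poisson 95% bars that cover counting error only; Ccnd1 in T and NK-like cells of control day 13 was 0 and is not drawn. Ccnd1 points are highest in endothelial-like cells (162 to 294 CPM), Ccnd3 points in several marrow classes, and Cdkn1c points in chondrocyte-like cells (616 to 1563 CPM). The Ccnd3 points are lowest in macrophage-like cells (41.7 to 59.2 CPM).

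The mix of D cyclins differed between classes, and some classes had similar shares. Of all D cyclin UMIs, Ccnd3 made 91.6% to 94.7% in neutrophil-like, 93.5% to 96.9% in erythroid-like and 90.4% to 97.2% in monocyte-like cells. Ccnd2 made 69.3% to 73.1% in fibroblast and tendon-like cells, beside 67.2% and 74% in T and NK-like cells (2 libraries). The Ccnd1 share was 46.4% to 50.8% in macrophage-like cells, inside the endothelial-like range of 38.9% to 55.7%. Endothelial-like cells held Ccnd1, Ccnd2 and Ccnd3 in sizeable parts, at 41.1%, 33.3% and 25.6% in mutant day 19. In mutant day 13 these were 55.7%, 28.5% and 15.8%. Osteoblast-like cells of the mutant had 10.4% and 15.7% of Ccnd1 at days 13 and 19. In chondrocyte-like cells the Ccnd1 share was 17.1% in control day 13, 28.2% in control day 19, 3.59% in mutant day 13 and 6.41% in mutant day 19. Their Ccnd2 share was 41.2%, 41.8%, 56.5% and 49.8% in the same order, and their Ccnd3 share was 41.7%, 29.9%, 39.9% and 43.8%. The lower Ccnd1 share in the mutant stood beside a total of D cyclin UMIs that was not lower, at 222 and 221 CPM in control and 276 and 252 CPM in the mutant.

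**Figure D2:**
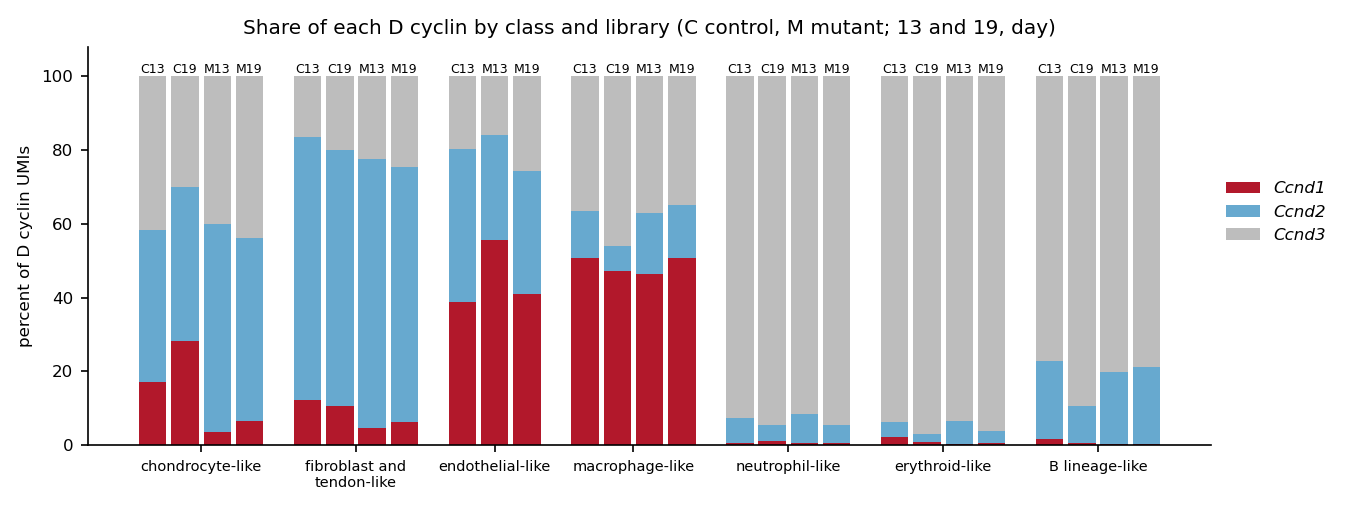
Shares of Ccnd1, Ccnd2 and Ccnd3 among the D cyclin UMIs of each class and library, as stacked bars from 0 to 100%. The Ccnd1 part of the chondrocyte-like bars is 17.1% and 28.2% in control and 3.59% and 6.41% in the mutant, and nearly all of the neutrophil-like and erythroid-like bars is Ccnd3.

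The genotype comparison in chondrocyte-like cells asked how loss of Sox9 in aggrecan-expressing cells altered these regulators. Ccnd1 and Cdkn1c fell in the mutant and Ccnd2 rose, while Ccnd3, Cdkn1a and Cdkn1b did not pass the test. So 1 of the 6 genes rose and 2 fell, against 23.6% of the 15225 genes tested that were called in either direction, 12.9% higher and 10.7% lower. The test was edgeR's quasi-likelihood fit of genotype and age over the 4 libraries, with p adjusted over all genes by Benjamini-Hochberg. It takes the spread from how the 2 ages differ in their genotype effect, which leaves 1 residual degree of freedom, and from the other genes.

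Ccnd1 showed the largest fall of the 6. Control cells had 38.1 CPM at day 13 and 62.3 CPM at day 19, and mutant cells had 9.93 and 16.2 CPM. The genotypes did not overlap, and the level was 3.84-fold lower in the mutant at day 13 and 3.85-fold lower at day 19. The fitted log2 change was -2.13 ± 0.13 (SE, n = 2 libraries per genotype; edgeR adjusted p = 4.59e-05). Fewer cells held it too. After each cell was thinned to 2000 UMIs, 6.17% and 9.28% of control cells at days 13 and 19 had a Ccnd1 UMI, against 1.47% and 1.89% of mutant cells. Before thinning the shares were 24.1%, 36.5%, 6.71% and 9.17%, at median depths of 9701.5 to 16695 UMIs. Thinned neutrophil-like cells, at median depths of 3222.5 to 4877 UMIs, had 0.769%, 0.517%, 0.388% and 0.117%. Thinning left out 16 to 103 chondrocyte-like and 88 to 541 neutrophil-like cells per library that were too shallow.

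Cluster 5, led by the columnar gene Il17b and by C1qtnf3, carried much of the control Ccnd1, and it held 1196 and 278 control cells against 24 and 46 mutant cells. Without that cluster, an alternative chosen after the data were seen, the log2 change of Ccnd1 was -1.42 (edgeR adjusted p = 0.000332).

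Ccnd2 went the opposite way and by less. It stood at 91.6 and 92.3 CPM in control and at 156 and 126 CPM in the mutant, without overlap. The fitted log2 change was 0.42 ± 0.12 (SE, n = 2; edgeR adjusted p = 0.0402), close to the threshold. The call was lost in 6 of the 16 settings run, with DESeq2 (adjusted p = 0.104), without cluster 5 (0.222), without cluster 18 (0.0555), with genotype alone in the model (0.0810), over all skeletal cells (0.0834) and in thinned cells (0.379). With genotype alone in the model and 1 library left out in turn, it was lost each time (0.0782 to 0.506). Ccnd3 had 92.7 and 66.1 CPM in control and 110.3 and 110.5 CPM in the mutant, a log2 change of 0.30 that did not pass (edgeR adjusted p = 0.217). It passed only without the control day 13 library and with genotype alone in the model (0.61, adjusted p = 0.0150), among all settings run. Its lower control value was that of day 19, and the groups did not overlap.

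Cdkn1c was the most abundant of the 6 genes in these cells and fell in the mutant. Control cells had 1563 CPM at day 13 and 1000.04 CPM at day 19, and mutant cells had 789.7 and 616 CPM. Every control value was above every mutant value. The fitted log2 change was -1.03 ± 0.17 (SE, n = 2; edgeR adjusted p = 0.00369). In thinned cells a Cdkn1c UMI was found in 69.6% and 52.0% of control and 53.9% and 42.8% of mutant cells, against 17.7%, 6.72%, 10.1% and 6.10% of neutrophil-like cells in the same order as above.

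The Cdkn1c call rested on the Col10a1 and Ihh cells of cluster 18. Without that cluster, another alternative chosen after the data were seen, the log2 change was -0.58 and no longer passed (edgeR adjusted p = 0.0567). The plain log2 ratio was then -0.60 at day 13 and -0.19 at day 19, against -0.98 and -0.70 with it. With genotype alone in the model the call was also lost without the day 13 mutant library (log2 change -1.25, adjusted p = 0.108) or the day 19 one (-0.91, 0.190), where the lone mutant library is assumed to vary like the controls. Ccnd1 was called in each of these fits, with adjusted p of 0.00264 to 0.0174.

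Cdkn1a and Cdkn1b gave no call in any of the 16 settings. Cdkn1a had 255 and 319 CPM in control and 289 and 328 CPM in the mutant, and the ranges overlapped. The plain log2 ratios were positive, 0.18 at day 13 and 0.04 at day 19, while the fitted change, scaled by TMM, was -0.08 (edgeR adjusted p = 0.692). The fitted value turned to 0.21 when only clusters named by their leading genes were used and to 0.026 over all skeletal cells. Cdkn1b had 29.1 and 41.5 CPM in control and 37.5 and 32.1 CPM in the mutant. As a log2 ratio, mutant against control, this made 0.37 at day 13 and -0.37 at day 19, with counting intervals of 0.27 to 0.47 and -0.51 to -0.24. The fitted change was -0.19 (edgeR adjusted p = 0.455).

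**Figure D3:**
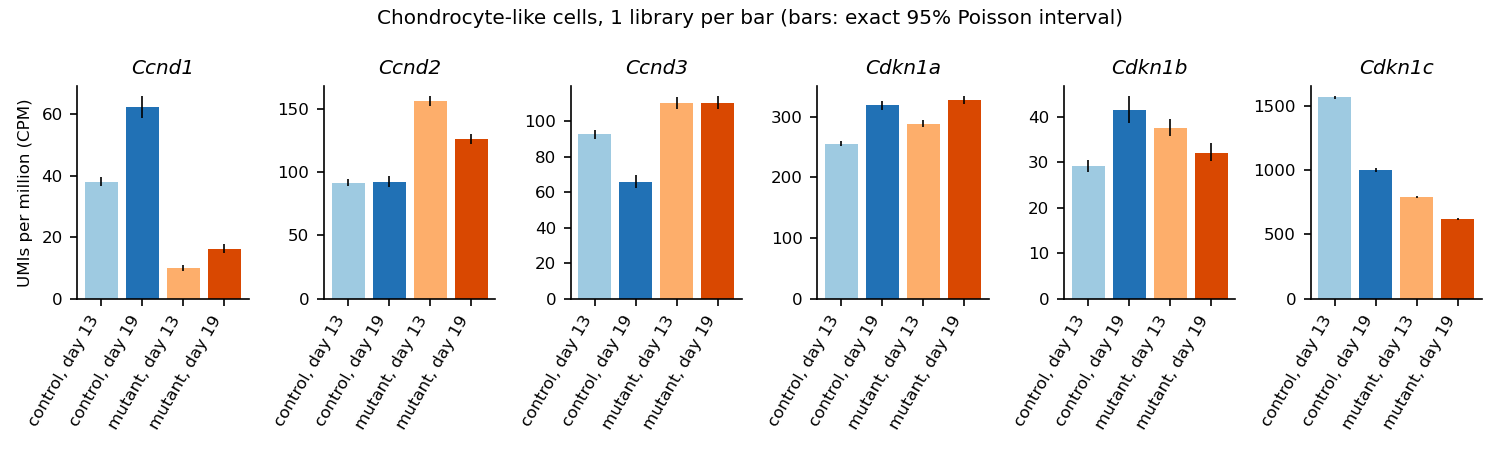
Levels of the 6 genes in chondrocyte-like cells, in CPM from 0, with 1 bar per library and exact Poisson 95% error lines for counting error. Both mutant Ccnd1 bars (9.93 and 16.2 CPM) and both mutant Cdkn1c bars (789.7 and 616 CPM) are lower than the control bars, and both mutant Ccnd2 bars are higher.

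Genes of other cell types moved with genotype in the same sums. Of 12 osteoblast markers, 9 were higher in the mutant at both ages, with summed levels of 4032 and 2943 CPM in control and 15035 and 11585 CPM in the mutant. Of 16 fibroblast and tendon markers, 13 were higher, at 5150 and 3754 CPM against 19746 and 15455 CPM. Col1a1 and Col1a2, the collagen I genes, were in both of these lists, here and in the clusters below. Erythroid markers were higher at both ages for 2 of 11, at 2686 and 9008 CPM against 692 and 4493 CPM. Neutrophil markers were higher for 11 of 12, at 63.9 and 203 CPM against 171 and 573 CPM. None of these markers was at 0 in a library. Of 13 genes of the dissociation stress response, 7 were called higher in the mutant, among them Hspa1b (log2 change 1.45), Ier3 (1.23) and Junb (1.03), and 1 lower, Dnajb1 (-0.56), against 12.9% and 10.7% of all genes. The part these genes or cells have in the values of Ccnd1, Ccnd2 and Cdkn1c was not tested.

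The clusters that both genotypes filled gave the comparison within a more even set of cells. In 4 of them and in the unnamed cluster 8a, led by Chad and Bglap2 with osteoblast genes among its top genes, the same fit gave 6 calls for the 6 genes by edgeR and 3 by DESeq2. In clusters 1 and 8a the fitted prior degrees of freedom were infinite, so those p-values rest on a spread shared by all genes. Ccnd2 was not called in clusters 1, 7, 17, 18 or 8a. Its plain log2 ratio, mutant to control, was 0.54 at day 13 and 0.31 at day 19 in cluster 1. In the same order it was 0.66 and 0.56 in cluster 18 and 0.08 and -0.02 in cluster 7. Cluster 17 had 0.73 and -0.04, and cluster 8a had -0.50 and 0.32.

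Ccnd1 was called lower in clusters 1, 7 and 17. In cluster 1 it had 14.7 and 33.7 CPM in control and 8.78 and 10.3 CPM in the mutant, a log2 change of -1.26 (edgeR adjusted p = 3.93e-06, with 8.3% of all genes called there; DESeq2 adjusted p = 0.164). In cluster 7, led by Prg4, the lubricin of the joint surface, it had 13.0 and 10.2 CPM against 2.63 and 1.75 CPM, a log2 change of -2.41 (edgeR adjusted p = 0.00103, with 6.99% called; DESeq2 0.172). The cluster with the mitotic kinases, 17, gave the call by both tools. There Ccnd1 had 54.2 and 82.6 CPM in control and 20.4 and 37.4 CPM in the mutant, a log2 change of -1.40 (edgeR adjusted p = 0.00149, with 12.9% called; DESeq2 0.00377).

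Osteoblast markers were higher in the mutant at both ages for 6 of 12 in cluster 1, 9 of 12 in cluster 7 and 8 of 12 in cluster 17. Their sums were 4906 and 4006 CPM in control against 6247 and 5780.0 CPM in the mutant in cluster 1, and 21083 and 9173 CPM against 29382 and 21393 CPM in cluster 7. In cluster 17 they were 1650 and 1649 CPM against 10640 and 5523 CPM. Fibroblast and tendon markers were higher for 13 of 16 in cluster 1 (7252 and 6103 CPM against 9783 and 9070 CPM), 12 of 16 in cluster 7 (24666 and 11929 CPM against 36265 and 27345 CPM) and 12 of 16 in cluster 17 (2032 and 1956 CPM against 13876 and 7668 CPM). Bglap2, Mfap5 and Clec3b were at 0 in a library of each of the 3 clusters, as were Mepe in clusters 7 and 17, Ifitm5 in cluster 7 and Dmp1 in cluster 17, and the part of these markers in the Ccnd1 values was not tested.

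In cluster 18, by contrast, Ccnd1 stood at 24.3 and 30.8 CPM in control and 25.5 and 42.0 CPM in the mutant. The genotypes overlapped, and the log2 change of 0.11 did not pass (edgeR adjusted p = 0.819). The genotype effect in cluster 18 differed from that in cluster 1 by 1.29 on the log2 scale (edgeR interaction with library as block, adjusted p = 0.0399, with 4.3% of genes called). The comparisons of a cluster with cluster 1, here and below, were chosen after the data were seen.

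Cluster 5 had the highest control Ccnd1 of the class, at 73.1 and 107 CPM, above cluster 17 at the same age. Its Ccnd2 was low beside this, at 59.7 and 64.9 CPM, whereas cluster 7 had 284 and 242 CPM of Ccnd2 and 13.0 and 10.2 CPM of Ccnd1 in control. The clusters that held most mutant cells combined low Ccnd1 with intermediate Ccnd2. In cluster 0 Ccnd1 was 5.47 and 10.9 CPM and Ccnd2 was 142 and 126 CPM in the day 13 and day 19 mutant libraries. In cluster 3a Ccnd1 was 13.0 and 8.29 CPM and Ccnd2 was 217 and 164 CPM.

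Cdkn1c was highest of all clusters of the class in control cluster 18, at 5707 CPM at day 13 and 3976 CPM at day 19. In mutant cluster 18 it was 1339 and 1327 CPM. The genotypes were far apart there, with a log2 change of -1.99 (edgeR adjusted p = 5.67e-11, with 16.7% of genes called; DESeq2 2.15e-18). Other genes of these cells went in several directions. Col10a1, the collagen of hypertrophic cartilage, had 7537 and 3658 CPM in control and 8074 and 4348 CPM in the mutant. Ihh, the hedgehog ligand of prehypertrophic cells, had 551 and 475 CPM against 959 and 705 CPM. Pth1r, the receptor for parathyroid hormone-related peptide, had 2430 and 2795 CPM against 2483 and 2349 CPM. Acan, the aggrecan gene, had 6472 and 5995 CPM against 1874 and 2260 CPM, and Sox9 had 330.0 and 377 CPM against 227 and 206 CPM. Mmp13, a collagenase of late hypertrophic cells, had 25.7 and 4.98 CPM in control and 655 and 289.9 CPM in the mutant. Whether the cells of this cluster were at the same stage in both genotypes was not tested.

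Osteoblast and fibroblast genes also moved in cluster 18. Of the osteoblast markers 9 of 12 were higher in the mutant at both ages, at 2674 and 2610 CPM in control and 12573 and 12130 CPM in the mutant in all, with Mepe at 0 in a library. Ibsp, a bone matrix gene that was not counted among these 12, had 928 and 700.3 CPM against 8230 and 6109 CPM. Of the fibroblast and tendon markers 11 of 16 were higher, at 982 and 862 CPM against 11515 and 11024 CPM, with Pdgfra, Dpt, Clec3b, Tnmd and Cxcl12 at 0 in at least 1 library. Their part in the Cdkn1c difference was not tested.

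The same gene fell in cluster 8a, which is outside the chondrocyte-like class. Cdkn1c had 1780 and 847 CPM in control and 443 and 302 CPM in the mutant, a log2 change of -1.91 (edgeR adjusted p = 5.02e-20, with 10.9% of genes called; DESeq2 1.55e-11). The 12 osteoblast markers had 45567 and 20243 CPM in control and 23514 and 22314 CPM in the mutant, with 6 of 12 higher in the mutant at both ages. In cluster 1 Cdkn1c had 934 and 654 CPM against 729 and 579 CPM and was not called. The genotype effect on Cdkn1c was more negative in cluster 18 than in cluster 1 by -1.73 on the log2 scale (edgeR interaction, adjusted p = 2.06e-05) and in cluster 8a than in cluster 1 by -1.62 (adjusted p = 0.00184, with 0.906% of genes called).

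Smaller differences within clusters concerned Ccnd3 and Cdkn1a. In cluster 18 Ccnd3 had 35.4 and 37.6 CPM in control and 58.8 and 76.7 CPM in the mutant, a log2 change of 0.72 (edgeR adjusted p = 0.00421; DESeq2 0.408). Cdkn1a had 261 and 294 CPM in control cluster 17 and 400.2 and 355 CPM in mutant cluster 17, and 287 and 312 CPM against 275 and 254 CPM in cluster 1. It was called in neither cluster alone, and the genotype effects differed between them by 0.51 (edgeR interaction, adjusted p = 0.0390, with 5.19% of genes called). Between clusters 7 and 1 edgeR called a difference for 0 of the 6 genes, with 1 at an unadjusted p under 0.05 and 0.294% of all genes called.

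**Figure D4:**
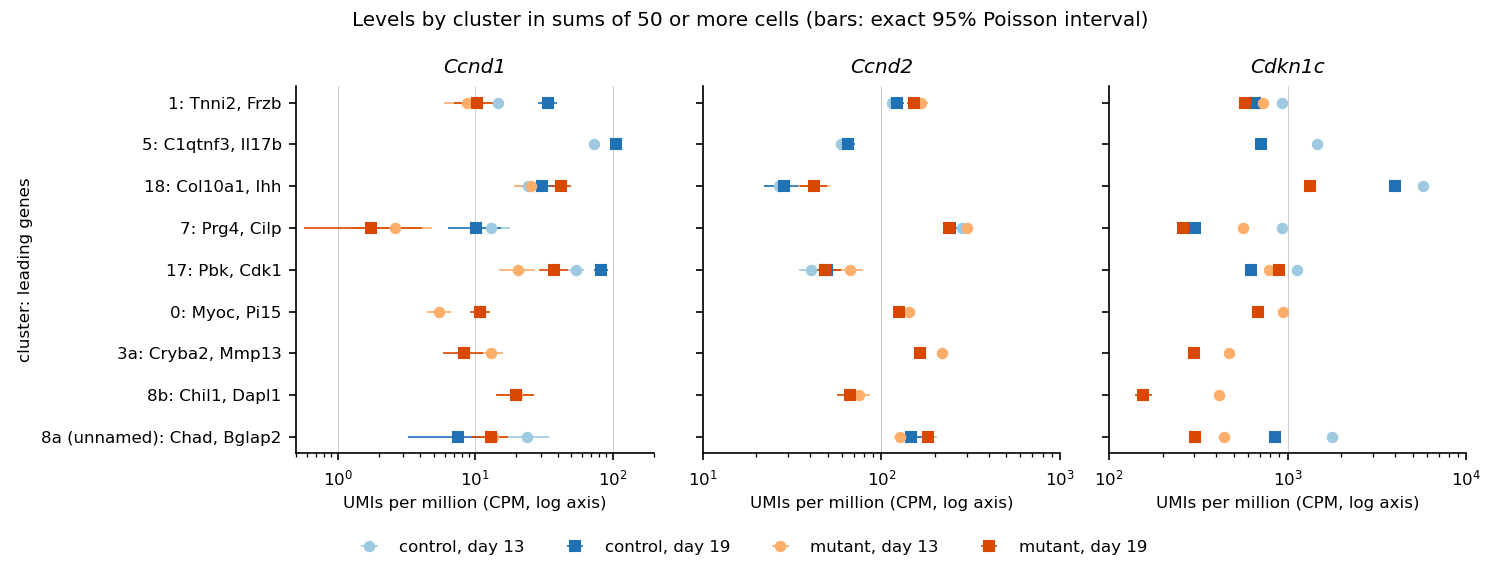
Levels of Ccnd1, Ccnd2 and Cdkn1c in the clusters of chondrocyte-like cells and in the unnamed cluster 8a, in CPM on a log axis, with 1 point per library that had at least 50 cells and exact Poisson 95% bars. Cdkn1c in cluster 18 separates control (5707 and 3976 CPM) from mutant (1339 and 1327 CPM), and Ccnd1 separates them in clusters 1, 7 and 17.

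Between day 13 and day 19 no gene of the 6 was called in chondrocyte-like cells, where 0.23% of genes were. By edgeR 2 of the 6 had an unadjusted p under 0.05, and DESeq2 called 0 with 2 under that level. Ccnd1 was higher at day 19 in both genotypes, by 0.71 (control) and 0.70 (mutant) as a plain log2 ratio. Cdkn1c was lower by -0.64 and -0.36. For Ccnd3 the ratio was -0.49 in control and 0.00 in the mutant, and the difference between these was not tested. Without the filter on low counts Ccnd1 (log2 change 0.64, edgeR adjusted p = 0.00262) and Cdkn1c (-0.57, adjusted p = 0.0271) passed.

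Within clusters, edgeR called 3 age differences. Ccnd1 was higher at day 19 in cluster 1, with a log2 change of 0.85 (adjusted p = 0.00372, 3.42% of genes called). Cdkn1c was lower at day 19 in cluster 7, from 936 to 303 CPM in control and from 565 to 259 CPM in the mutant, a log2 change of -1.41 (adjusted p = 0.000494, 1.28% called). It was also lower in cluster 8a, with a log2 change of -0.78 (adjusted p = 0.00399, 1.71% called). In clusters 17 and 18 edgeR called 0 of the 6 with age, with 1 in each at an unadjusted p under 0.05, and 0.0699% and 1.66% of all genes were called.

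The clusters with mitotic genes allowed the members to be set against the cell cycle itself. Cells were called cycling where at least 10 of their 2000 thinned UMIs came from 86 genes of S, G2 and M phase, and non-cycling at 2 or fewer. There were 255 cycling chondrocyte-like cells in control day 13 (6.12%), 135 in control day 19 (13.2%), 242 in mutant day 13 (7.09%) and 181 in mutant day 19 (6.12%). The class is a range of a score, with 25 to 60 cells per library within 2 UMIs of the limit. Cycling cells were deeper, with median UMIs of 14520 to 26735 against 9723 to 15925.5.

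Ccnd1 was higher and Ccnd2 lower in cycling than in non-cycling cells of the same library. edgeR with library as block called 1 of the 6 higher and 1 lower, against 40.4% of 12812 genes called, 20.1% higher and 20.3% lower. The log2 change was 0.77 ± 0.15 for Ccnd1 (SE, n = 4 libraries; adjusted p = 0.0035) and -1.09 ± 0.07 for Ccnd2 (adjusted p = 1.19e-06). Ccnd3 (0.04), Cdkn1a (-0.07), Cdkn1b (-0.24) and Cdkn1c (-0.45, adjusted p = 0.0853) did not pass. Without the filter on low counts Cdkn1b (-0.30, adjusted p = 0.0252) and Cdkn1c (-0.51, adjusted p = 1.40e-06) passed as lower.

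The values by phase showed where the difference lay. Non-cycling cells had 92.0, 96.5, 163 and 129 CPM of Ccnd2 in the order control day 13, control day 19, mutant day 13 and mutant day 19. Cycling cells with more G2 and M than S phase UMIs had 43.7, 44.7, 64.7 and 55.1 CPM. The 16 to 30 cells per library with more S phase UMIs had 103, 122, 153 and 119 CPM, near the non-cycling level. So the low Ccnd2 was seen in the G2 and M range. Ccnd1 was 32.6, 54.1, 9.47 and 13.3 CPM in non-cycling cells and 76.4, 144, 23.7 and 83.5 CPM in the S range. In the G2 and M range it was 54.3, 71.6, 13.9 and 35.1 CPM. Ccnd1 was lower in the mutant than in control of the same age in every one of these ranges.

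Cdkn1c was found in every phase range. It had 1686, 1167, 753 and 600.1 CPM in non-cycling cells, 701, 261, 562 and 433 CPM in the S range and 1086, 605, 760.2 and 791 CPM in the G2 and M range. The S range was lowest in all 4 libraries, whereas the G2 and M range was below the non-cycling level in both controls, above it in the day 19 mutant and within counting error of it in the day 13 mutant. Cluster 17 held 79.2%, 82.2%, 50.4% and 61.3% of the cycling cells and none of the non-cycling ones. Inside cluster 0 of the day 13 mutant, where both kinds occurred, Ccnd2 was 86.3 CPM in 46 cycling cells and 139.7 CPM in non-cycling cells, and Ccnd1 was 16.9 (10 UMIs) and 4.24 CPM. Cdkn1c was 969 and 849 CPM there. Cluster 0 of the day 19 mutant had 85.3 CPM of Ccnd2 in 25 cycling cells (22 UMIs) and 125 CPM in non-cycling cells. In cluster 5 of the day 13 control Ccnd2 was not lower in cycling cells. It was 62.6 CPM in 31 cycling cells (40 UMIs) and 54.1 CPM in non-cycling cells, within counting error. Ccnd1 was 75.2 and 68.1 CPM there, within counting error, and Cdkn1c was 673 and 1638 CPM.

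**Figure D5:**
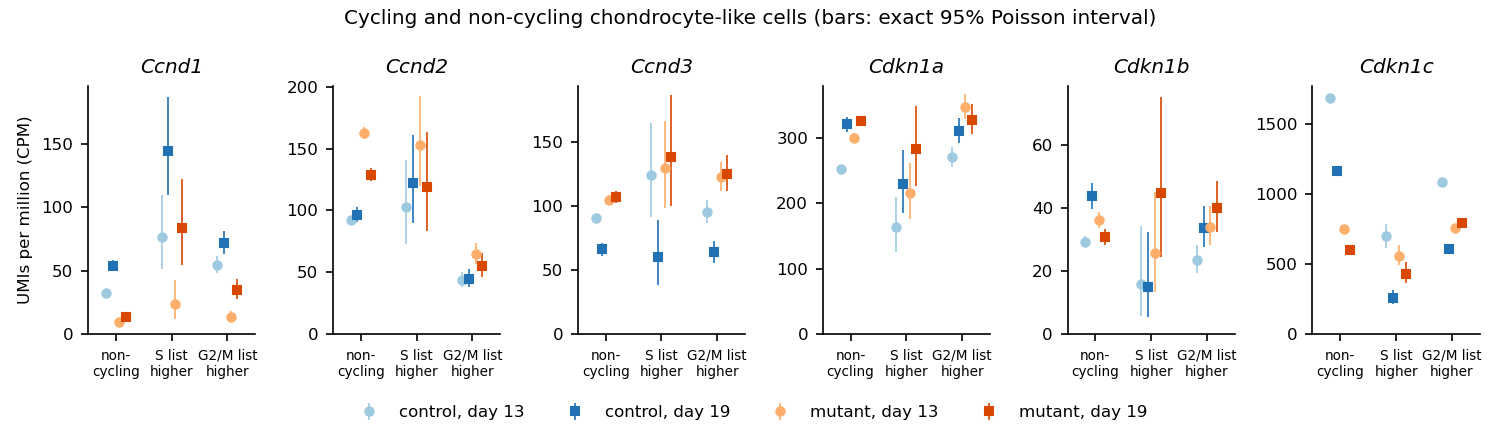
Levels of the 6 genes in non-cycling, S range and G2 and M range chondrocyte-like cells, in CPM on linear axes from 0, with 1 point per library and exact Poisson 95% bars. Ccnd2 in the G2 and M range (43.7 to 64.7 CPM) is below the non-cycling values (92.0 to 163 CPM) in every library, and Ccnd1 is above its non-cycling value in every library.

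The rest of the pathway was read from lists around the 6 genes, each given by its counts and median beside a median log2 genotype change of 0.01 over all genes. Of 6 CDK partners and pocket proteins 1 fell in the mutant, Cdk6, the kinase partner of D cyclins (log2 change -0.49, edgeR adjusted p = 0.0402), with a list median of -0.22. Of 10 E2F genes and later cyclins 1 fell, Tfdp1, the dimer partner of E2F factors (-0.50, adjusted p = 0.0287), with a median of -0.10. Of 4 INK4 inhibitors, which block CDK4 and CDK6, 1 rose, Cdkn2c (0.64, adjusted p = 0.0185), with a median of 0.12. Of 8 genes for the turnover of D cyclins and inhibitors 1 rose, Fbxo31, an F-box protein for Ccnd1 (0.50, adjusted p = 0.0455), with a median of -0.10. With 23.6% of all genes called, these counts are near or under the background. Of 40 S phase genes 1 rose and 6 fell, and of 46 genes of G2 and M phase 0 rose and 5 fell, with medians of -0.05 and -0.33.

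Among 14 upstream inputs known in cartilage 1 rose and 2 fell. Fgfr3, the receptor that restrains growth plate proliferation, had a log2 change of -1.35 and the transcription factor gene Jund one of -0.61, while Trp53 had one of 0.76 (all called by edgeR). Of 11 neighbours of Cdkn1c in its imprinted region, 10 were tested, 1 rose and 2 fell. Phlda2, an imprinted growth restrainer, changed most with -2.62 (edgeR adjusted p = 4.26e-05), beside Kcnq1ot1, the non-coding RNA of the imprinting centre (-0.75), and Slc22a18 (2.12). Igf2 (0.19) and H19 (0.38) were not called. With age edgeR called 0 genes of any list. At an unadjusted p under 0.05 were 4 genes of the S phase list, 2 of the Cdkn1c neighbours and 1 each of the E2F, INK4, p53 and dissociation lists.

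In cycling cells, where 20.1% of all genes were called higher and 20.3% lower, 4 of the 6 CDK partners and pocket proteins rose, Cdk4 (0.61), Cdk6 (0.88), Cdk2 (1.503) and Rbl1 (2.57). Of the 10 E2F genes and later cyclins 8 rose and 1 fell, with Ccna2 at 6.76 and Ccne2 at 3.01. All 4 INK4 inhibitors rose, with Cdkn2c at 2.01 and Cdkn2a at 3.67. None of the 11 p53 targets rose and 6 fell, with a median of -0.42 against -0.04 over all genes. Of the upstream inputs 3 rose and 6 fell, among the latter Ihh (-2.39) and Pth1r (-1.06).

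Cdkn1a was read beside other p53 targets because it is the best-known member of that set. Of 12 p53 targets 11 were tested, 3 rose and 2 fell in the mutant, against 12.9% and 10.7% of all genes. Trp53inp1 (log2 change 1.43), Phlda3 (0.92) and Gadd45a (0.67) rose, and Ccng1 (-0.77) and Mdm2 (-0.44), the ubiquitin ligase for p53, fell. The list median was 0.25, and Cdkn1a itself was not called. RefSeq (GRCm38.p6) gave 2 start sites for Cdkn1a, 2 for Ccnd3 and 1 for Cdkn1b, and the 250 bases before each were searched on both strands. The Cdkn1a sequences are shown because only 1 of these 2 windows held a match to a p53-like pattern. Bases farther from the starts were not searched, and binding of p53 was not measured. In the first, at chr17:29090729-29090978 on the plus strand, capitals mark a pair of CATG cores 6 bases apart, as in many p53 sites, that begins 48 bases before the start. In the second, at chr17:29093519-29093768 on the plus strand, capitals mark a TATAA box 25 bases before the start. The first window also held TATAA on the reverse strand, 227 bases before its start, left in lower case.

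Cdkn1a upstream start: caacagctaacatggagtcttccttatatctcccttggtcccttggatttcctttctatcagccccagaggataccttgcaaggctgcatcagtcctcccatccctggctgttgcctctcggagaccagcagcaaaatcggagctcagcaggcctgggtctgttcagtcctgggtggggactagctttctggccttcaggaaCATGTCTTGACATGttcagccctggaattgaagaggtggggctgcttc

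Cdkn1a downstream start: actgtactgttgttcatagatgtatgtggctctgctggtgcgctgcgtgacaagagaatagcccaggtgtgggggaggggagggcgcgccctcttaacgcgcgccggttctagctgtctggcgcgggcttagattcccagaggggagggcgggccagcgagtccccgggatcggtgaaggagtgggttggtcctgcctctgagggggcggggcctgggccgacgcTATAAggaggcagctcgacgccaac

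The motif CATGNNNNNNCATG occurred in 0.490% of 32851 promoter windows of this length, TATAA in 22.8% and the GC box GGGCGG in 32.7%. GGGCGG was found at 104 and 46 bases before the downstream start and not in the upstream window. The Ccnd3 and Cdkn1b windows held no CATGNNNNNNCATG. Counts at the 3′ end do not separate the start sites, so no level belongs to either sequence alone.

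By position, on GRCm38 (mm10), Ccnd1 (chr7:144929931-144939925) and Cdkn1c (chr7:143458339-143461050) lie on the minus strand of chromosome 7, and Ccnd2 (chr6:127125162-127152193, minus strand) and Cdkn1b (chr6:134920401-134925513, plus strand) on chromosome 6. Ccnd3 (chr17:47505051-47599691) and Cdkn1a (chr17:29090976-29100727) lie on the plus strand of chromosome 17. Annotated genes of the opposite strand overlap 5 of the 6: LTO1 overlaps Ccnd1, Gm43126 and 9330179D12Rik overlap Ccnd2, Bysl overlaps Ccnd3, AC167363.2 overlaps Cdkn1a and Gm44732 overlaps Cdkn1c. The sources used here do not give the strand setting of the counting, so reads of the overlapping stretches cannot be told apart.

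Outside cartilage the genotype comparison gave 1 call for the 6 genes over 6 classes by edgeR and 0 by DESeq2. Cdkn1b was lower in mutant erythroid-like cells, at 104 and 145 CPM in control and 62.3 and 102 CPM in the mutant (log2 change -0.91, edgeR adjusted p = 0.0115, 3.39% of genes called; DESeq2 0.299). Both control values were above both mutant values, by little in the nearest pair, and Cdkn1b was higher at day 19 in the same cells (log2 change 1.01, adjusted p = 0.0158, 2.14% called). Genotype calls were 0 in B lineage-like (1.16% of genes called), fibroblast and tendon-like (1.03%), macrophage-like (1.21%), monocyte-like (0.705%) and neutrophil-like cells (2.75%). At an unadjusted p under 0.05 edgeR gave 1, 1, 0, 1 and 2 of the genes in these classes, and DESeq2 gave 0, 1, 0, 0 and 1. Plain Ccnd1 levels, with no test, also differed outside cartilage. Plasmacytoid dendritic-like cells, too few at day 13 to fit, had 126 CPM at day 19 in control and 18.4 CPM in the mutant. Fibroblast and tendon-like clusters 14 and 23 had 47.1 and 96.6 CPM in control at day 13, against 16.1 and 29.6 CPM in the mutant. At day 19 they had 28.6 and 47.4 CPM against 20.2 and 31.4 CPM. Endothelial-like cells at day 13 were higher in the mutant, at 294 against 211 CPM.

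With age, edgeR called Cdkn1c lower in monocyte-like cells, from 82.6 to 16.5 CPM in control and from 71.1 to 18.1 CPM in the mutant (log2 change -2.11, adjusted p = 0.0124, 0.829% called). Col2a1, a gene of cartilage, was lower at day 19 in neutrophil-like cells of the same libraries too, and the part of free RNA was not tested. Age calls were 0 in B lineage-like (0.117% of genes called), fibroblast and tendon-like (0.258%), macrophage-like (0.913%) and neutrophil-like cells (0.419%), with 1, 3, 1 and 1 of the genes at an unadjusted p under 0.05 by edgeR.

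The test of the difference set the chondrocyte-like genotype effect against that of other classes. The effect on Cdkn1c was lower in chondrocyte-like than in fibroblast and tendon-like cells by -1.63 on the log2 scale (edgeR interaction, adjusted p = 0.00473, 5.13% of genes called). Cdkn1c was not called in fibroblast and tendon-like cells, which had 578 and 197 CPM in control and 526 and 491 CPM in the mutant. For Ccnd1 the same difference was -0.80 and did not pass (adjusted p = 0.315). Against neutrophil-like cells 0 of the 6 differed (1.93% of genes called), with 3 at an unadjusted p under 0.05.

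Across 40 sums of a class in a library, the genes whose levels followed each member most closely were found among 6544 genes by Pearson's r of log2(CPM + 1). The sums share libraries and depth, so r is a description. For Ccnd1 they were Rtl8a (0.859), Sh3gl1 (0.835) and Afdn (0.833), for Ccnd2 Adgrl1 (0.914), Fam92a (0.906) and Ttc3 (0.893), and for Ccnd3 Cdkn2d (0.886), H3f3a (0.865) and Lbr (0.864). For Cdkn1a they were Fosb (0.897), Errfi1 (0.894) and Mbnl2 (0.894), and for Cdkn1b Atf7ip (0.828), Mier1 (0.816) and Sp3 (0.797). Cdkn1c had the highest values, with Peg3, also an imprinted gene (0.957), Fkbp9 (0.954) and Cyr61 (0.946).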

How the data were processed

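Epiphyses were digested with Liberase and loaded on Chromium v3 chips, per the labels' protocols. The authors deposited UMI counts per gene and barcode made with Cell Ranger 3.1.0, per the file headers, and mm10 and Seurat 3 are named in the submitters' processing notes. The members and lists were chosen with earlier results of these data known.

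Barcodes had to show 500 genes or more, with mitochondrial UMIs up to 15%, and doublets above a Scrublet score of 0.25 were removed. Cells were clustered with scanpy 1.11.5 (2000 variable genes, 30 components, resolution 1.0), and clusters were named from fixed markers, so class values may differ from the study's own. Counts were summed per library and class or cluster. edgeR 4.0.16 (R 4.3.3) with TMM scaling and filterByExpr tested genotype and age, or cycling state and interactions with library as block, with Benjamini-Hochberg adjustment at 0.05 over all genes. DESeq2 1.42.0 was an alternative. Standard errors are the log2 change divided by the root of F. With 1 library per genotype and age, p-values measure only the spread between these libraries, and intervals (95%, exact) cover counting error only. In simulated data with the same genes and a dispersion of 0.01 the fit recovered 94.4% of 2-fold changes, with 7 false calls. At 0.05 it recovered 28.8%, and the fitted value was 0.0184. All 6 genes were named, with up to 4 called genes per list by largest change and the 3 genes with the highest r for each member. Mdm2, Igf2, H19 and the list genes named for cycling cells were chosen after their values were seen.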

Additional observations from a re-analysis of the deposited data

Results flagged for a closer look

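Several genotype effects differed between groups of cells by a test of the difference. The effect on Cdkn1c was lower in chondrocyte-like than in fibroblast and tendon-like cells, where it was not called, by -1.63 on the log2 scale. Against cluster 1, its effect was more negative by -1.73 in cluster 18 and by -1.62 in cluster 8a. The effect on Ccnd1 was higher in cluster 18 than in cluster 1 by 1.29, and that on Cdkn1a higher in cluster 17 than in cluster 1 by 0.51. These were edgeR interactions with library as block, and each class or cluster came from the same 4 libraries. The comparisons with cluster 1 were chosen after the data were seen. Cdkn1b in chondrocyte-like cells moved one way at day 13 (log2 ratio of mutant to control 0.37) and the other way at day 19 (-0.37), with 1 library per genotype at each age, and this difference was not tested.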

How the results depend on the processing

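No paired analysis was possible because no group had a second library to pair by number, and the fit of genotype and age already compares the genotypes within an age. Leaving out a library from that fit leaves no residual degree of freedom. With genotype alone in the model, chosen after seeing the data, leaving out 1 library in turn gave 1 to 3 calls for the 6 genes. Among these fits the uncalled Cdkn1a ran from -0.18 to 0.021 and Cdkn1b from -0.39 to 0.0063, and so changed sign. In chondrocyte-like cells 3 of the 6 genes were called with genotype, and 1 was without the Col10a1 and Ihh cluster (Ccnd1). Over 16 settings the log2 change ran from -2.40 to -1.42 for Ccnd1 (called in 16), from 0.20 to 0.54 for Ccnd2 (called in 10) and from -1.14 to -0.58 for Cdkn1c (called in 15). With age 0 genes were called, and 2 without the low-count filter. Without that filter 4 of the 6 were called in cycling cells in place of 2, where the median of all genes moved from -0.04 to -0.20. DESeq2 gave 3 calls in single clusters in place of 6, and 0 in other classes in place of 1. Directions reversed for uncalled genes: Cdkn1a with genotype, at 0.026 over all skeletal cells and 0.21 in clusters named by leading genes, Ccnd3 in cycling cells without the filter (-0.021), and Ccnd2 in cluster 7 by DESeq2 (-0.0073). All-gene genotype calls numbered 3599, with 2385 by DESeq2, 1961 after thinning and 2064 in clusters named by leading genes. Age calls numbered 35, with 515 without the filter, 87 by DESeq2, 21 with RLE scaling, 99 with cluster 8a and 58 in clusters named by leading genes. The cause was not tested. The settings without cluster 5, without cluster 18, with cluster 8a and with leading-gene clusters alone were chosen after seeing the data. Of the other values, 299 kept direction and call or moved within their error, 46 moved beyond it, 17 lost and 5 gained a call.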
